A study of Homo sapiens with 36 samples.

Results

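The transcripts of the human mitochondrial genome were followed in MIA PaCa-2, a pancreatic carcinoma cell line, under induced Cas9 cutting of PELO or HBS1L. The set was taken by name: every row of the count table whose Ensembl identifier carried a symbol starting with MT-, which gave 37 of 61544 rows, with 13 protein genes, 2 rRNA genes and 22 tRNA genes. Polyadenylated RNA was sequenced from 36 libraries in 12 groups of 3. The cells carried Cas9 and a guide that doxycycline (dox, 2 µg/mL) switches on, the guide being directed against PELO, against HBS1L or, as a non-targeting control (NTC), against neither. Each of these 3 lines was sampled with dox and without dox at 48 h and at 96 h, in medium with tetracycline-free serum. The stated question was what loss of either gene does in cells whose SKI complex, a helper of cytosolic RNA decay, is destabilised. All 12 groups share the cell line and the inducible system, and every dox group, NTC included, also received the antibiotic itself. PELO and HBS1L form the complex that rescues cytosolic ribosomes stalled on an mRNA. Whether a line is 1 clone is not given in the sources used here, and the labels do not say whether replicates came from separate cultures; the tests therefore speak of the variation among the libraries of a group, which may be technical.

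As background, human mitochondrial DNA is transcribed from both strands into long precursors in which tRNAs sit between most of the mRNAs and the rRNAs. RNase P (with PRORP) and RNase Z (ELAC2) cut the precursors at the tRNA ends, and most of the freed mRNAs and the rRNAs receive short A tails. The mRNAs encode core subunits of respiratory complexes I, III, IV and of ATP synthase, and the mitochondrial ribosome that reads them is one of the known targets of tetracyclines, to which doxycycline belongs.

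Many of the results below concern tRNA genes, which differ in sequence and strand, so the gene sequences of those whose values are given most fully are shown, on the strand of the RNA, 5′ to 3′, with the anticodon in capitals. They were read from the GENCODE 29 transcripts of GRCh38. MT-TT (threonine), MT-TR (arginine), MT-TM (methionine), MT-TD (aspartate), MT-TI (isoleucine), MT-TL1 (leucine) and MT-TF (phenylalanine) lie on the + strand, at chrM:15888-15953, chrM:10405-10469, chrM:4402-4469, chrM:7518-7585, chrM:4263-4331, chrM:3230-3304 and chrM:577-647. MT-TQ (glutamine), MT-TA (alanine) and MT-TC (cysteine) lie on the − strand, at chrM:4329-4400, chrM:5587-5655 and chrM:5761-5826. MT-TI and MT-TQ overlap at their ends on opposite strands, and MT-TM follows them.
MT-TT: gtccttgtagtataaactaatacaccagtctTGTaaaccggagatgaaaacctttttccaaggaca
MT-TR: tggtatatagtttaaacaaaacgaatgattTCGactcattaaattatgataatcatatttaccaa
MT-TM: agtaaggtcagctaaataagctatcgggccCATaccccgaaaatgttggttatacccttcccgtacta
MT-TD: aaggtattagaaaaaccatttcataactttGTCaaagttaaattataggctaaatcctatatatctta
MT-TI: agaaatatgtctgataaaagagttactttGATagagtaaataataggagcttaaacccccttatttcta
MT-TL1: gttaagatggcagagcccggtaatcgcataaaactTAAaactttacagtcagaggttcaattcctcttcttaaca
MT-TF: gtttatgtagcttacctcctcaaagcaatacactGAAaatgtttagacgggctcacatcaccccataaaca
MT-TQ: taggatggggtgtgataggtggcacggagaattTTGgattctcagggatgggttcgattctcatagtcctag
MT-TA: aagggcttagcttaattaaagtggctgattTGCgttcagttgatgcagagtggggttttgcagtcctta
MT-TC: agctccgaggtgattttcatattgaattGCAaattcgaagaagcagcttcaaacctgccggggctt
MT-ATP8 and MT-ATP6, both subunits of ATP synthase, share the stretch chrM:8527-8572 (+ strand), printed here because reads from it cannot be given to one gene alone, with the MT-ATP6 start codon and the MT-ATP8 stop codon in capitals.
MT-ATP8 and MT-ATP6: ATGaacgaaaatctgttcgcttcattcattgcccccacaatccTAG

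The tables limit what these rows mean. Counts were not whole numbers in 5 to 36 of the 36 libraries for each member, so reads had been shared among genes or places. Whether counting used strand is not given, so for MT-ND6 and the 8 tRNA genes of the − strand (MT-TQ, MT-TA, MT-TN, MT-TC, MT-TY, MT-TS1, MT-TE and MT-TP), and for their partners opposite, reads of both strands cannot be told apart. In a polyA library a tRNA row can hold the tRNA, an uncut precursor or a longer fragment of a neighbour, and these cannot be told apart either. Capture through A tails was not measured for any member, MT-ND6 and the rRNAs included, so levels of different genes need not follow their amounts. Of 404 nuclear copies of mitochondrial genes listed, 19 were tested, and the summed counts of all the listed copies came to 2.41 to 3.20% of the members' counts in each library. The most abundant copies were MTCO1P12, MTND2P28, MTATP6P1, MTATP8P1 and MTCO3P12, with means of 5.97, 17.3, 9.34, 1.48 and 0.439% of the level of their mitochondrial gene, so the levels of MT-CO1, MT-ND2 and MT-ATP6 are uncertain to that extent.

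Library totals, in units of 1000000 counts, were 45.4 to 107.4 (median 55.2), the deepest being PELO dox replicate 2 at 96 h. KRT8 and KRT18, keratins of this epithelial line, were at 664 CPM (counts per 1000000, here unscaled, as for the marker levels unless said otherwise) or more in every library, and CDKN2A and MTAP, in a band deleted in this line, had at most 1 and 2 counts. Of 4 leukocyte, 4 fibroblast, 3 endothelial and 2 red cell markers, PTPRC, CD3E, LYZ, DCN, PECAM1, VWF and HBB had at most 3, 1, 7, 3, 2, 9 and 1 counts, and PDGFRB, HBA1 and COL1A1 at most 21, 49.5 and 67. The other 3 were higher, COL1A2 at 27.2 to 260.4 CPM, CDH5 at 0.676 to 41.5 CPM and CD14 at 0.380 to 8.92 CPM, with up to 475 counts. Scaled by trimmed mean of M-values (TMM), HBS1L was at 36.2 ± 0.902 CPM in HBS1L dox cells against 105 ± 1.76 CPM in HBS1L no dox cells at 48 h, and 33.7 ± 0.327 against 111 ± 1.99 CPM at 96 h (SD, n = 3 each). Untreated HBS1L cells were already below untreated NTC cells, which had 123.2 ± 1.30 CPM at 48 h and 143 ± 2.05 CPM at 96 h. PELO was at 20.7 ± 0.400 CPM in PELO dox cells against 25.2 ± 1.33 CPM in PELO no dox cells at 48 h, and 28.2 ± 1.46 against 29.1 ± 1.99 CPM at 96 h. NTC dox cells had 24.6 ± 0.912 and 26.6 ± 0.839 CPM of PELO at the 2 times, so PELO dox cells at 96 h were not below them. A level of RNA does not by itself measure cutting of the gene. FOCAD, which stabilises the SKI complex and lies near CDKN2A and MTAP, had at most 1 count in each library.

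All 37 members passed the filter on low counts and were tested. Set per kilobase of gene, their mean levels over the 36 libraries spanned 2.95 CPM per kb (MT-TN, asparagine tRNA) to 4271 CPM per kb (MT-ATP8). MT-RNR2, the large rRNA, had 3333 CPM per kb and MT-RNR1, the small rRNA, 463 CPM per kb. Among mRNAs of the + strand the levels per length ran from 387 (MT-ND5) to 4271 CPM per kb, and MT-ND6, the protein gene of the − strand, stood at 101 CPM per kb. The lengths are those of the annotated genes, 207 bases for MT-ATP8 and 59 to 75 bases for the tRNA genes. A fragment reaching in from a neighbour weighs more in so short a row, so ranks per length are uncertain for these genes.

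The tRNA genes were lower and far more spread. Of the 22, MT-TL1, which lies between MT-RNR2 and MT-ND1, was highest at 731 CPM per kb, above MT-CYB, MT-RNR1, MT-ND5 and MT-ND6, followed by MT-TG at 411 and MT-TF at 172 CPM per kb. The 14 tRNA genes of the + strand ranged over 3.64 to 731 CPM per kb and the 8 of the − strand over 2.95 to 24 CPM per kb. In raw counts the scarcest, MT-TN, had 2.25 to 26.2 counts in a library, so its values carry the most counting error.

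**Figure D1:**
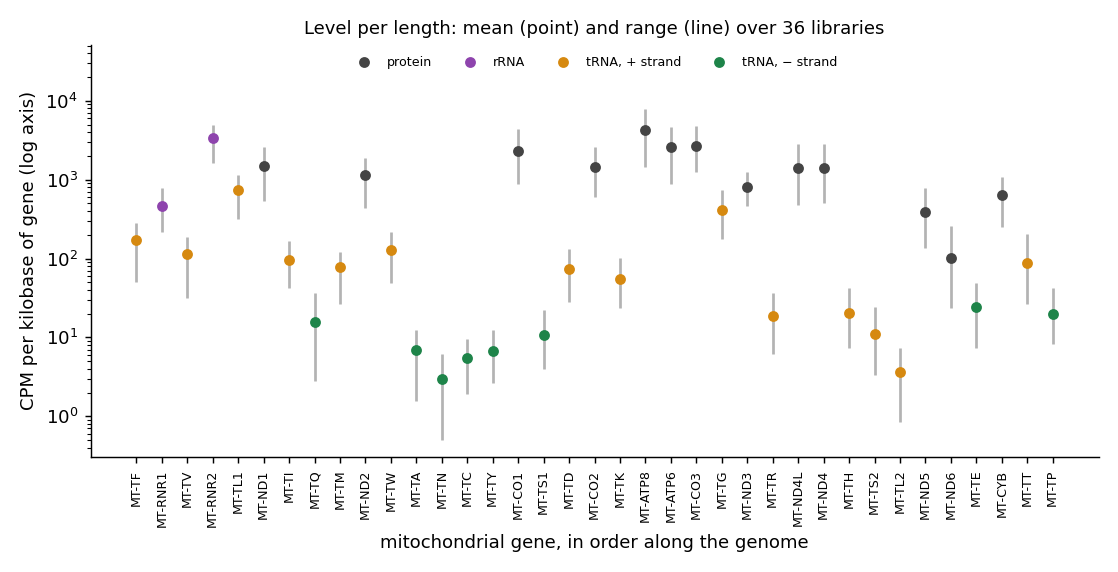
Mean level of each of the 37 genes in CPM per kilobase (point, log axis) with the range over 36 libraries (line), in order along the mitochondrial genome and coloured by class. MT-ATP8 (4271) and MT-RNR2 (3333) have the highest means, and the 8 tRNA genes of the − strand have means of 2.95 to 24.

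The members' summed share fell into 2 ranges by time. It was 2.11 to 3.77% of all counts in the 18 libraries at 48 h and 0.922 to 2.14% in the 18 at 96 h, and the 3 named marker genes MT-CO3, MT-ND3 and MT-ND4 were present in every library, at no less than 980.1, 158 and 701 CPM. The time of sampling and the run of library numbers cannot be told apart, so the difference between times was not tested. By group the share was 2.19, 2.84 and 2.67% in PELO dox and 2.56, 2.60 and 3.22% in PELO no dox at 48 h, 3.16, 3.33 and 3.17% in HBS1L dox and 3.57, 3.62 and 3.77% in HBS1L no dox, and 2.11, 2.32 and 2.45% in NTC dox and 2.59, 2.48 and 2.43% in NTC no dox. At 96 h it was 1.41, 1.46 and 1.27% in PELO dox and 1.91, 1.95 and 2.14% in PELO no dox, 1.72, 1.70 and 1.30% in HBS1L dox and 1.83, 1.34 and 1.55% in HBS1L no dox, and 1.32, 1.51 and 1.61% in NTC dox and 0.960, 0.922 and 1.78% in NTC no dox. PELO dox lay below PELO no dox at 96 h with no overlap, HBS1L dox below HBS1L no dox at 48 h with no overlap, and among the untreated NTC libraries at 96 h replicate 3 held the highest share, well apart from replicates 1 and 2. Other measures of the libraries separated by time as well, and this was not tested either. MALAT1 and NEAT1, long nuclear RNAs, held 0.0749 to 0.110% of counts in the group means at 48 h and 0.0400 to 0.0584% at 96 h. The group means of mitochondrial rRNA per mRNA were 0.291 to 0.348 at 48 h and 0.405 to 0.492 at 96 h. In bulk RNA a smaller number of mitochondria-rich cells and less mitochondrial RNA per cell cannot be told apart.

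**Figure D2:**
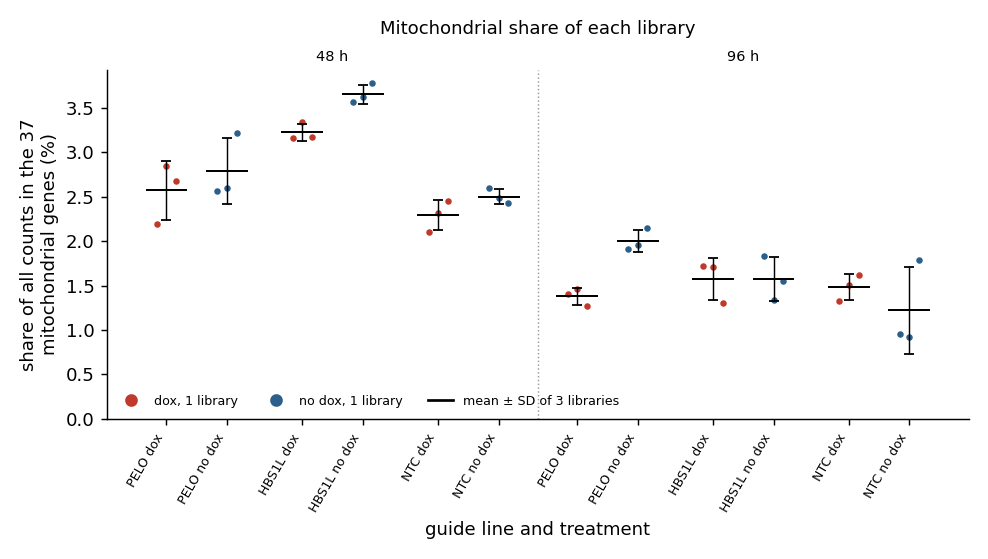
Share of all counts, in percent, held by the 37 mitochondrial genes in each library (points), with mean and SD of 3 libraries, by guide line and treatment at 48 h and 96 h. PELO dox at 96 h (1.38 ± 0.0988%) lies below PELO no dox (2.00 ± 0.124%), and the untreated NTC libraries at 96 h spread over 0.922 to 1.78%.

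Because that share moved as a block between libraries, each member was also measured relative to mitochondrial mRNA, that is, to the summed count of the 13 protein genes of its library. This second scale was chosen after the data were seen. It shows unequal change among members and says nothing of whether any one stayed constant. All other genes kept the whole-library scaling in that fit. The shares of all genes given beside it are therefore not on the members' scale. Below, CPM of members are TMM-scaled, and "rose", "fell" and "called" mean an adjusted p below 0.05.

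At 48 h the clearest change with dox was a fall of MT-TT, the tRNA for threonine that lies after MT-CYB. MT-TT had 5.25, 6.65 and 6.76 CPM in PELO dox libraries against 9.80, 9.61 and 12.4 CPM in PELO no dox libraries, 5.97, 5.78 and 5.23 CPM in HBS1L dox against 12.2, 12.5 and 13.5 CPM in HBS1L no dox, and 5.88, 6.07 and 5.33 CPM in NTC dox against 13, 11.9 and 10 CPM in NTC no dox. The dox and no dox libraries did not overlap in any of the 3 lines. The log2 fold changes were -0.77 ± 0.15, -1.17 ± 0.14 and -1.01 ± 0.15 (SE), with adjusted p of 6.07e-05, 2.47e-07 and 1.79e-06 (edgeR quasi-likelihood test, adjusted over 20767 genes). It was the only member of the 37 called in the same direction in all 3 lines on the CPM scale, in comparisons that share no library. Of all genes tested, 2.04% fell in all 3 lines and 1.83% rose in all 3. As a share of the members, 1 of 37 is close to that. The call held in each line when any 1 of its 6 libraries was left out.

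MT-TR, MT-TM and MT-TD, tRNAs for arginine, methionine and aspartate, fell in the HBS1L and NTC lines at 48 h. MT-TR had 1.14, 1.12 and 0.949 CPM in HBS1L dox libraries against 2.35, 2.08 and 2.09 CPM in HBS1L no dox libraries, and 0.929, 0.804 and 0.908 CPM in NTC dox against 2.30, 1.96 and 2.26 CPM in NTC no dox, with no overlap in either line. In the PELO line it had 1.55, 1.86 and 1.79 CPM with dox and 1.62, 1.76 and 2.11 CPM without, and those libraries overlapped. Its log2 fold change was -1.03 ± 0.14 in HBS1L (adjusted p = 9.78e-07), -1.30 ± 0.15 in NTC (adjusted p = 1.29e-08) and -0.09 ± 0.14 in PELO (adjusted p = 0.652). The log2 fold change of MT-TM was -0.70 in HBS1L, -0.76 in NTC and 0.12 in PELO, and that of MT-TD was -0.78 in HBS1L, -0.75 in NTC and -0.14 in PELO, where neither passed (adjusted p = 0.595 and 0.583). MT-TH, the histidine tRNA, also fell in HBS1L (-0.58) and NTC (-0.52), and MT-TS2, a serine tRNA, in HBS1L (-0.62). The MT-TR, MT-TM and MT-TD calls held without any 1 of the 6 libraries, whereas MT-TH was lost without HBS1L no dox replicate 3 and without NTC no dox or dox replicate 1, and MT-TS2 without 5 of the 6 libraries, all except no dox replicate 1.

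Several tRNA genes of the − strand were higher with dox at 48 h. MT-TQ, the glutamine tRNA, had 1.89, 2.04 and 2.28 CPM in NTC dox libraries against 1.44, 0.775 and 1.03 CPM in NTC no dox libraries (log2 0.94 ± 0.24, adjusted p = 0.00236), and 1.63, 1.90 and 2.06 CPM in PELO dox against 1.17, 0.976 and 1.07 CPM in PELO no dox (log2 0.80 ± 0.25, adjusted p = 0.0083). The dox libraries lay above the untreated ones in both lines. In HBS1L it had 2.06, 2.61 and 1.31 CPM with dox and 1.08, 1.65 and 1.16 CPM without, overlapped, and did not pass (log2 0.60, adjusted p = 0.0573). MT-TC, the cysteine tRNA, had 0.536, 0.536 and 0.599 CPM in NTC dox against 0.416, 0.176 and 0.370 CPM in NTC no dox, with a log2 fold change of 0.81 that was lost without NTC no dox replicate 2. MT-TA, the alanine tRNA, had 0.853, 0.852 and 0.686 CPM in HBS1L dox against 0.343, 0.532 and 0.491 CPM in HBS1L no dox (log2 0.79), with no overlap, and log2 0.80 in PELO, each call being lost without 4 of the 6 libraries. MT-TN and MT-TY, asparagine and tyrosine tRNAs, rose in NTC (0.92 and 0.74) and were lost without 4 and 3 of the 6 libraries. Each of these 5 rows was below 3 CPM in every library.

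MT-TF, the phenylalanine tRNA that opens the + strand transcript, was at 16.7, 19.3 and 19.9 CPM in PELO dox against 12.4, 12.6 and 15.5 CPM in PELO no dox at 48 h, with no overlap (log2 0.47 ± 0.13, adjusted p = 0.00406), a call that held without any 1 library. MT-TI rose in PELO by a log2 fold change of 0.40, with dox and no dox libraries overlapping, and was lost without 4 of the 6. MT-ND5, a complex I subunit, had 628, 788 and 731 CPM in PELO dox against 1022, 1008 and 1222 CPM in PELO no dox (log2 -0.60 ± 0.21, adjusted p = 0.0211). It was the only mRNA or rRNA called with dox in any line at 48 h on the CPM scale, and the call was lost without PELO no dox replicate 3 and without PELO dox replicate 1.

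In all, 4 members rose and 2 fell in PELO at 48 h, where 24.2% of all genes tested rose and 23.7% fell (48% called). In HBS1L 1 rose and 6 fell, where 10.1% and 11.4% of all genes did (21.5% called), and in NTC 4 rose and 5 fell, where 19% and 16% did (35% called). The shares called were 16.2%, 18.9% and 24.3% of the 37 in PELO, HBS1L and NTC, each below that of all genes. By direction, 16.2% of the members fell and 2.7% rose in HBS1L. In a fit of the 18 libraries of 48 h alone the counts were higher, 5 rising and 5 falling in PELO, 2 and 13 in HBS1L, and 5 and 10 in NTC. The median log2 fold change of the 37 was 0.04 in PELO, -0.20 in HBS1L and -0.18 in NTC, beside -0.02, 0.01 and 0.02 over all genes. Without HBS1L no dox replicate 3 the HBS1L line had 4 called members, all lower.

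Markers of other cell types also moved with dox at 48 h. Of 13 such markers 6 were tested, and 0 rose and 3 fell in PELO, 4 rose and 1 fell in HBS1L, and 4 rose and 2 fell in NTC. The 4 leukocyte markers summed to 1.57 to 2.16 CPM in PELO dox against 3.47 to 3.56 CPM in PELO no dox, 5.69 to 6.30 against 3.37 to 3.76 CPM in HBS1L, and 8.42 to 8.96 against 3.98 to 4.57 CPM in NTC. The 4 fibroblast markers summed to 85.9 to 94.4 CPM in PELO dox against 141 to 151 CPM in PELO no dox, 182 to 193 against 123.2 to 131 CPM in HBS1L, and 242 to 262 against 161 to 173 CPM in NTC. Both sums were thus lower with dox in PELO and higher in HBS1L and NTC, but they rest mostly on CD14 and on COL1A2. Of the 3 tested fibroblast markers 2 rose and 1 fell in NTC. The sum of the 3 endothelial markers, of which only CDH5 was tested and made up most, was lower with dox in every line. It was 7.18 to 10.5 against 33 to 41.5 CPM in PELO, 12.8 to 15.3 against 20.8 to 25.1 CPM in HBS1L, and 27.2 to 31.8 against 33.4 to 39.8 CPM in NTC. The 2 red cell markers had 0.329 to 0.538 against 0.209 to 0.510 CPM in PELO, 0.573 to 0.909 against 0.258 to 0.445 CPM in HBS1L, and 0.691 to 0.784 against 0.168 to 0.331 CPM in NTC. Of MALAT1 and NEAT1, long RNAs retained in the nucleus, 1 fell in NTC at 48 h, where their summed share was 0.0717 to 0.0783% of counts with dox against 0.0958 to 0.126% without. The part of these genes in the members' values was not tested.

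**Figure D3:**
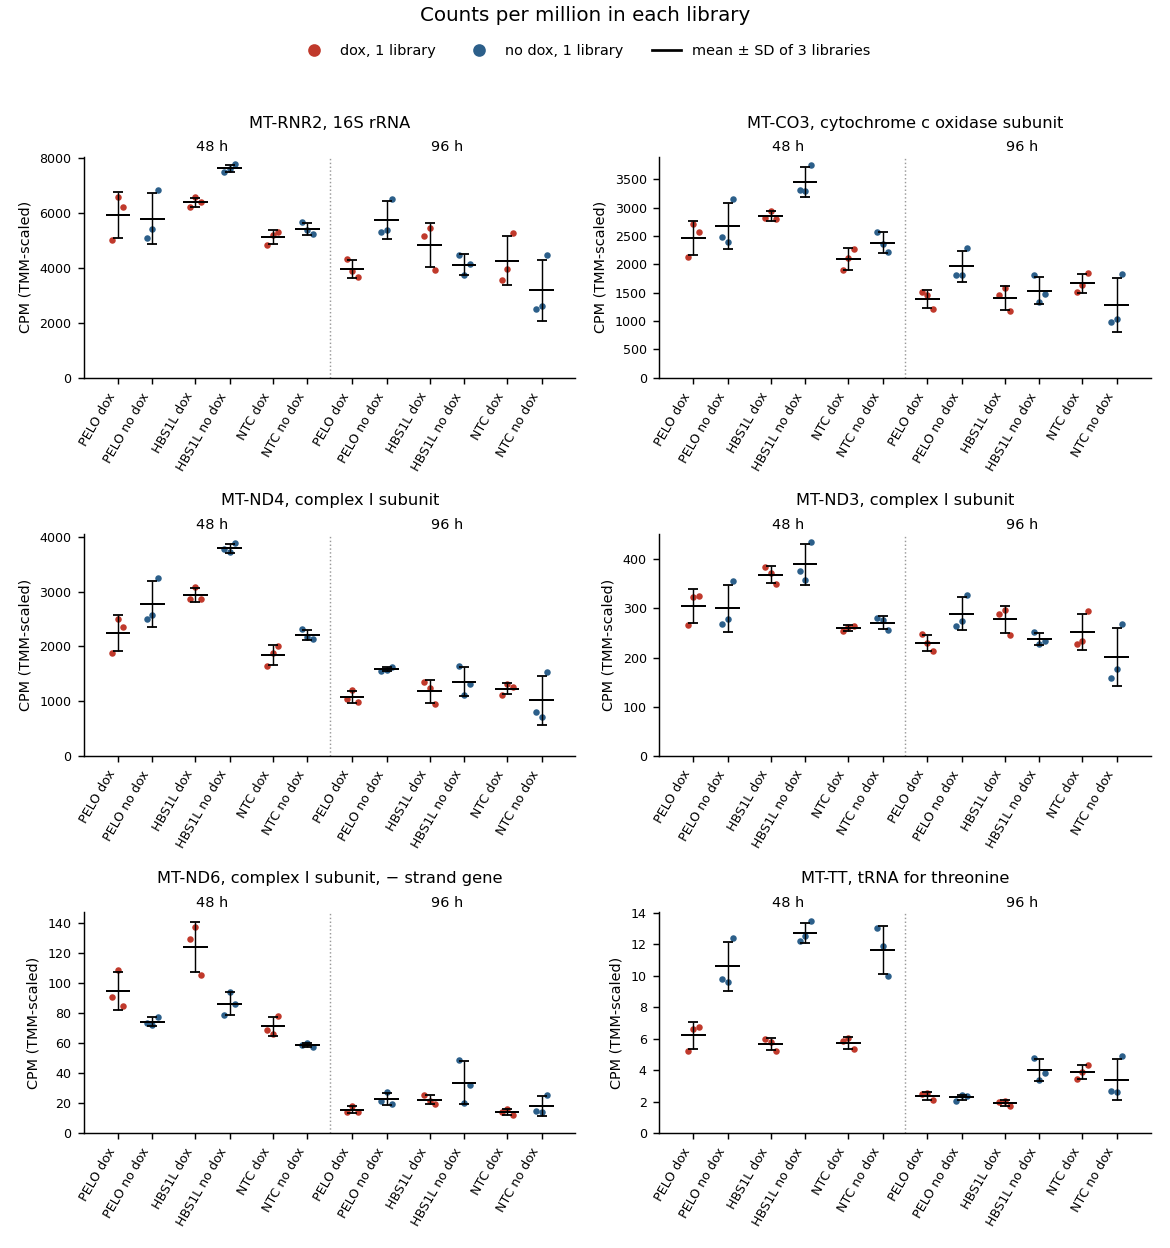
TMM-scaled CPM of 6 mitochondrial genes in each library (points), with mean and SD of 3 libraries, by guide line and treatment at 48 h and 96 h. MT-TT is lower with dox in all 3 lines at 48 h, and MT-RNR2, MT-CO3, MT-ND4 and MT-ND3 are lower in PELO dox than in PELO no dox at 96 h.

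Measured relative to mitochondrial mRNA, the 3 lines had more in common at 48 h. Of the 37 members, 9 were higher and 4 were lower with dox in all 3 lines. Of all genes 1.87% were higher and 2.06% lower in all 3, but only the members changed scale, so the 2 shares are not alike. The 9 were MT-ATP8, MT-ATP6, MT-ND2, MT-CYB, MT-ND6, MT-TF, MT-TQ, MT-TA and MT-TC, and the 4 were MT-TT, MT-ND5, MT-CO1 and MT-ND4. MT-ATP8 had 571, 608 and 645 counts per 10000 counts of mitochondrial mRNA in PELO dox libraries against 495, 493 and 497 in PELO no dox, 654, 659 and 617 in HBS1L dox against 494, 475 and 508 in HBS1L no dox, and 664, 657 and 659.6 in NTC dox against 479, 435 and 469.7 in NTC no dox. In each line the dox libraries lay above the untreated ones (log2 0.30 ± 0.04, 0.39 ± 0.04 and 0.52 ± 0.04). MT-ND5 had 373, 364 and 359.7 per 10000 in PELO dox against 537, 519.6 and 499 in PELO no dox, 391.8, 381 and 418 in HBS1L dox against 496, 519 and 495 in HBS1L no dox, and 426, 410.4 and 385 in NTC dox against 508, 555 and 532 in NTC no dox. Here the dox libraries were lower without overlap in every line (log2 -0.50 ± 0.07, -0.34 ± 0.07 and -0.39 ± 0.07).

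The 7 members MT-ATP8, MT-ATP6, MT-ND2, MT-CYB, MT-TT, MT-ND5 and MT-CO1 kept these calls in all 3 lines when any 1 library of the line was left out. MT-ND6 did so in HBS1L, at 54.9, 55.1 and 44.3 per 10000 with dox against 28.6, 34.2 and 29.7 without (log2 0.74 ± 0.15), and its calls in PELO and NTC were lost without 3 and 5 of the 6 libraries. MT-TF in HBS1L was lost without each library in turn, and MT-TQ in HBS1L without dox replicate 2 alone. MT-TA in NTC was lost without no dox replicate 2, MT-ND4 in NTC without dox or no dox replicate 1, and MT-TC without 3, 3 and 1 libraries in PELO, HBS1L and NTC. On this scale 14 members were higher and 5 lower in PELO (48% of all genes called), 10 and 10 in HBS1L (21.6%), and 12 and 10 in NTC (35.1%). MT-RNR1 in NTC (0.23) was the one rRNA call, and it was lost without replicate 1 of NTC dox or NTC no dox.

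At 96 h the PELO line had the most members called, and they split by kind: on the CPM scale 5 rose, all + strand tRNA genes, and 15 fell. Of all genes tested 34.4% rose and 32.5% fell (66.8% called). Of the 37 members 54.1% were called, 13.5% rising and 40.5% falling. The shares called and rising were thus below those of all genes, and the share falling was above. The 5 that rose were MT-TI, MT-TM, MT-TR, MT-TL1 and MT-TV, the tRNAs for isoleucine, methionine, arginine, leucine and valine. MT-TI had 10.3, 11 and 10.04 CPM in PELO dox libraries against 4.45, 4.17 and 3.88 CPM in PELO no dox libraries. All dox libraries lay well above all untreated ones (log2 1.33 ± 0.17, adjusted p = 5.79e-08). MT-TM, next to it on the genome, had 7.69, 8.27 and 7.40 CPM with dox against 4.47, 4.43 and 3.82 CPM without (log2 0.88 ± 0.16, adjusted p = 2.43e-05). MT-TR had 1.45, 1.30 and 1.19 CPM with dox against 0.843, 0.688 and 0.717 CPM without (log2 0.80 ± 0.17), and MT-TL1 67.9, 70.4 and 60 against 41.3, 40.6 and 45.3 CPM (log2 0.64 ± 0.17). In all of these the groups did not overlap and the calls held without any 1 of the 6 libraries. MT-TV (log2 0.40) was lost without 4 of the 6, PELO dox and no dox replicates 1 and 2.

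MT-TQ, whose gene overlaps the end of MT-TI on the opposite strand, went the other way. It had 0.409, 0.278 and 0.199 CPM in PELO dox libraries against 0.733, 1.04 and 0.625 CPM in PELO no dox libraries, without overlap (log2 -1.46 ± 0.35, adjusted p = 0.000424). MT-TA had 0.184, 0.268 and 0.108 CPM in PELO dox against 0.477, 0.521 and 0.349 CPM in PELO no dox (log2 -1.14 ± 0.35, adjusted p = 0.00415). Both calls held without any 1 library. MT-TN (-0.98) and MT-TC (-0.80) fell too, but were lost without 4 and 3 of the 6 libraries. Of the 8 tRNA genes of the − strand, 4 fell and none rose, and of the 14 of the + strand, 5 rose and none fell. The 4 that fell are scarce rows, with MT-TQ, MT-TA, MT-TC and MT-TN having as few as 11, 6, 6.92 and 2.25 counts in a library of the series.

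Both rRNAs fell in PELO at 96 h. MT-RNR1 had 327, 274 and 245 CPM in PELO dox libraries against 409, 424 and 549 CPM in PELO no dox libraries (log2 -0.71 ± 0.16, adjusted p = 0.000357). MT-RNR2 had 4333, 3880.5 and 3660.1 CPM with dox against 5307, 5382 and 6522 CPM without (log2 -0.54 ± 0.17, adjusted p = 0.00855). All dox libraries were below all untreated ones, and both calls held without any 1 library. PELO no dox had the highest mean share of counts in the rRNAs at 96 h, 0.610%, against 0.393% in PELO dox. That share was 0.442% in NTC dox, 0.343% in NTC no dox, 0.517% in HBS1L dox and 0.449% in HBS1L no dox. PELO dox thus lay within the range of the other lines.

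Of the 13 protein genes, 9 fell and none rose. These were MT-ATP6 and MT-ATP8 (-0.54 and -0.55), MT-CO2 and MT-CO3 of cytochrome c oxidase (-0.46 and -0.50), and MT-ND3, MT-ND4, MT-ND4L, MT-ND5 and MT-ND6 of complex I (-0.33, -0.55, -0.54, -0.53 and -0.53). MT-ND4 had 1037, 1198 and 988 CPM in PELO dox against 1551, 1568 and 1616 CPM in PELO no dox, MT-CO3 1507, 1459.6 and 1211 against 1805, 1808 and 2286 CPM, and MT-ND3 247, 229 and 214 against 265, 275 and 328 CPM, each without overlap. MT-ND6 had 14.3, 18.2 and 14.3 CPM with dox against 21.3, 27.3 and 19.8 CPM without. MT-CO1, MT-CYB, MT-ND1 and MT-ND2 did not pass (log2 -0.42, -0.30, 0.00 and -0.26). The mean share of counts in the protein genes was 0.971% in PELO dox and 1.38% in PELO no dox. It was 1.03% in NTC dox, 0.870% in NTC no dox, 1.05% in HBS1L dox and 1.11% in HBS1L no dox, so PELO no dox was again the highest. MT-ATP8 and MT-ATP6 overlap by 46 bases and MT-ND4L and MT-ND4 by 7, so the values within a pair are not separate readings. The protein gene calls are the least firm of this comparison. Without PELO dox replicate 3 only 9 members were called, 5 higher and 4 lower, and none was a protein gene. All 9 protein gene calls were also lost with no filter on low counts and in a fit of the 18 libraries of 96 h alone.

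Markers of other cell types moved in the same comparison. Of the 6 tested 4 fell: the summed level of the 4 leukocyte markers was 0.397 to 0.698 CPM in PELO dox against 3.68 to 4.95 CPM in PELO no dox, that of the 4 fibroblast markers 27.5 to 30.2 against 210.3 to 225.5 CPM, that of the 3 endothelial markers 0.743 to 1.19 against 14.8 to 16.8 CPM, and that of the 2 red cell markers 0.325 to 0.377 against 0.388 to 0.611 CPM. These sums rest mostly on CD14, COL1A2, CDH5 and HBA1. The defining markers PTPRC, DCN, PECAM1 and HBB were at or near 0 counts in every library. The keratins KRT8 and KRT18 fell as well, KRT8 being at 791 ± 85.9 TMM-scaled CPM in PELO dox against 1504 ± 103 CPM in PELO no dox and KRT18 at 787 ± 82.8 against 1583 ± 96 CPM. At 96 h 3 of the 6 tested markers fell in HBS1L and 2 in NTC, and none rose. The fibroblast sum was 145 to 168 CPM in HBS1L dox against 192 to 202 CPM in HBS1L no dox, and 175 to 193 against 214 to 226 CPM in NTC. The part of these genes in the members' values was not tested.

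Relative to mitochondrial mRNA, 14 members were higher and 7 lower in PELO dox at 96 h (66.8% of all genes called in either direction). The + strand tRNA genes summed to 140.0, 133 and 138 counts per 10000 counts of mitochondrial mRNA in PELO dox libraries against 80.2, 79.6 and 81.2 in PELO no dox libraries, and every one of the 14 had a positive log2 value, 10 of them called. In the 33 libraries of other groups this sum was 70.1 to 103, so the 3 PELO dox libraries at 96 h stood above all others. The − strand tRNA genes summed to 2.73, 2.97 and 2.70 per 10000 in PELO dox against 2.60, 3.66 and 2.44 in PELO no dox, and those libraries overlapped. MT-TI had 9.66, 9.78 and 10.5 per 10000 with dox against 3.34, 3.08 and 2.56 without (log2 1.74 ± 0.09, adjusted p = 8.02e-20), MT-TM 7.21, 7.36 and 7.77 against 3.35, 3.27 and 2.53 (log2 1.29 ± 0.08), and MT-TL1 63.7, 62.6 and 62.9 against 31, 30.01 and 29.99 (log2 1.06 ± 0.05). MT-TT, lower with dox in PELO at 48 h, was higher at 96 h on this scale, at 2.32, 2.28 and 2.19 per 10000 in PELO dox against 1.55, 1.78 and 1.56 in PELO no dox (log2 0.48 ± 0.10, adjusted p = 7.88e-05). Among mRNAs MT-ND1, which lies between MT-TL1 and MT-TI, had the largest positive value (0.42). MT-RNR1 was lower (-0.29), and MT-RNR2 did not pass (-0.11). Of the 21 calls, 17 held without any 1 library, the others being MT-TA, MT-ATP8, MT-ND4L and MT-TE.

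**Figure D4:**
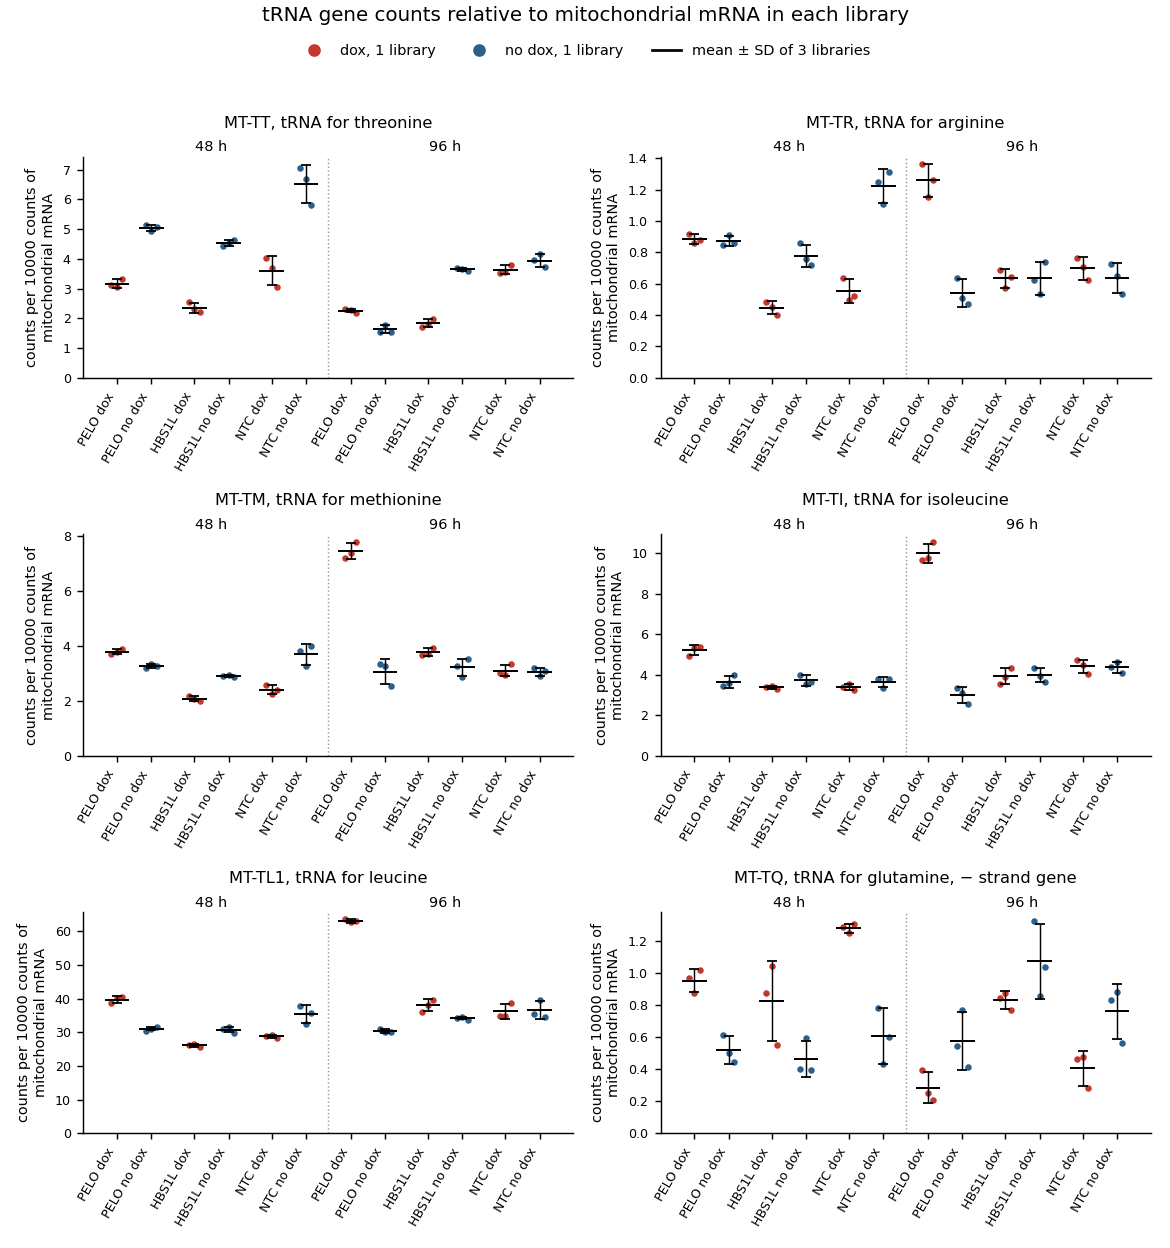
Counts of 6 tRNA genes per 10000 counts of mitochondrial mRNA in each library (points), with mean and SD of 3 libraries, by guide line and treatment at 48 h and 96 h. MT-TI and MT-TL1 stand above 9 and 60 per 10000 in the 3 PELO dox libraries at 96 h, and MT-TT is lower with dox in every line at 48 h.

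In the HBS1L line at 96 h, 1 member rose and 2 fell, where 11% of all genes rose and 8.9% fell (19.9% called). MT-TT had 2.01, 2.04 and 1.74 CPM in HBS1L dox libraries against 4.79, 3.41 and 3.83 CPM in HBS1L no dox libraries, without overlap (log2 -1.06 ± 0.19, adjusted p = 0.000125). MT-TF had 10.7, 11.7 and 10.3 CPM with dox against 7.08, 5.82 and 6.85 CPM without, also apart (log2 0.72 ± 0.15, adjusted p = 0.00061). Both held without any 1 of the 6 libraries. MT-ND5 had 420.0, 380.2 and 296 CPM with dox against 659, 456 and 542 CPM without (log2 -0.60 ± 0.21, adjusted p = 0.0484), a call lost without 5 of the 6, all except no dox replicate 2. Without HBS1L no dox replicate 2, which had the lowest share of its group, 6 members were called, 1 higher and 5 lower. On the scale of mitochondrial mRNA 9 were higher and 6 lower (20% of all genes called), among them MT-ATP8 (0.36), MT-ATP6 (0.29), MT-ND2 (0.21) and MT-CYB (0.18) above, and MT-TT (-1.0), MT-ND5 (-0.55) and MT-TD (-0.41) below. Both rRNAs were higher on this scale, MT-RNR1 by 0.29 and MT-RNR2 by 0.27, the MT-RNR2 call being lost without no dox replicate 1, as was MT-TD. That replicate left out, 8 members were called, 6 higher and 2 lower.

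In the NTC line at 96 h no member was called by edgeR on the CPM scale, where 3.89% of all genes rose and 3.63% fell (7.52% called), though 7 members had an unadjusted p under 0.05, and DESeq2 and limma each called 1. MT-TT had 3.45, 3.91 and 4.34 CPM in NTC dox libraries and 2.67, 2.61 and 4.91 CPM in NTC no dox libraries, and MT-ND4 had 1114, 1306 and 1261 CPM in NTC dox and 792, 701 and 1531 CPM in NTC no dox. For both genes untreated replicate 3 was above all the dox libraries, and untreated replicates 1 and 2 were below all of them. Without NTC no dox replicate 3, 23 members were called, all higher with dox, so the count of 0 rests on that library. Set against mitochondrial mRNA, MT-TT had 3.54, 3.56 and 3.81 per 10000 with dox and 3.95, 4.15 and 3.71 without. On that scale replicate 3 without dox was still the lowest of its group for the summed − strand tRNA genes, which had 2.66, 3.34 and 2.43 per 10000 with dox and 4.42, 4.81 and 3.36 without, and for the ratio of rRNA to mRNA, which was 0.396, 0.391 and 0.497 with dox and 0.401, 0.449 and 0.365 without. On that scale 2 members were lower, beside 7.55% of all genes called in either direction, MT-ND6 (-0.66) and MT-TY (-0.94). MT-ND6 was lost without NTC no dox replicates 1 or 2 or dox replicate 3, and MT-TY without 5 of the 6, all except no dox replicate 3. The count was 0 without no dox replicate 1, no dox replicate 2 or dox replicate 3, and 1 without dox replicate 1 or 2.

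**Figure D5:**
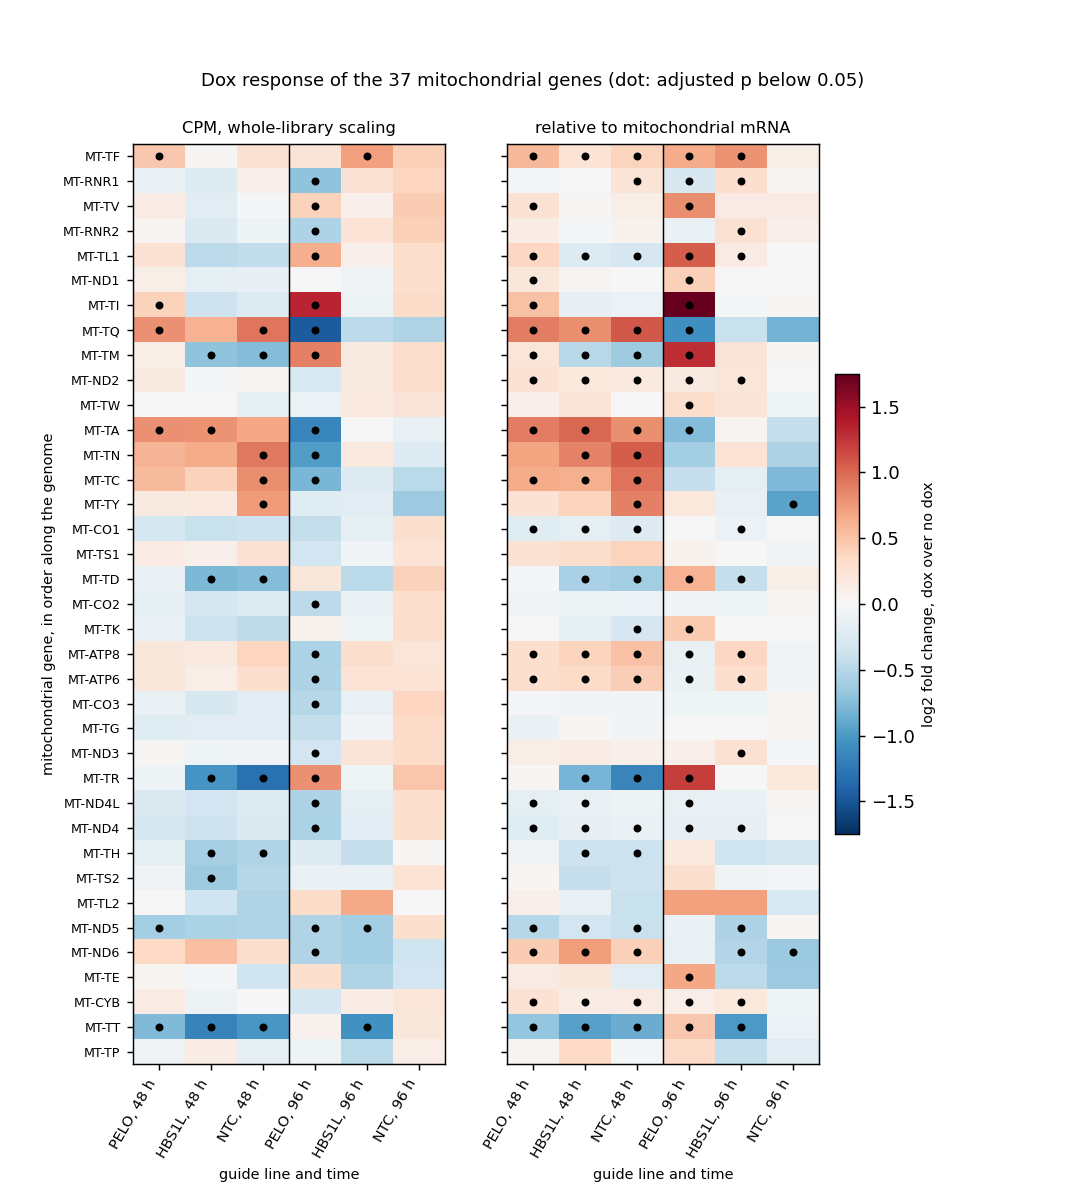
Log2 fold change, dox over no dox, of the 37 genes in order along the genome (rows) in each line at 48 h and 96 h (columns), on the CPM scale (left) and relative to mitochondrial mRNA (right), with a dot where the adjusted p was below 0.05. MT-TT is negative in all 3 lines at 48 h on both scales, and PELO at 96 h has positive values for MT-TI, MT-TM, MT-TR and MT-TL1 and negative ones for MT-TQ and MT-TA.

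The response of each targeted line was then set against that of NTC, the line that received dox with no target. At 48 h 4 members differed in PELO, all with a higher response, where 22.9% of all genes were higher and 24.9% lower (47.9% called): MT-TR (log2 difference 1.21 ± 0.21, adjusted p = 8.99e-06), MT-TM (0.88 ± 0.24, adjusted p = 0.00262), MT-TL1 (0.69) and MT-TI (0.64). The MT-TR and MT-TM differences held without any 1 of the 12 libraries. MT-TL1 and MT-TI were lost, leaving 2 calls, without replicate 1 of NTC dox, NTC no dox or PELO no dox, or replicate 2 of PELO dox or PELO no dox. Between HBS1L and NTC no member differed at 48 h, where 1.41% of all genes were higher and 2.44% lower (3.85% called). None had an unadjusted p under 0.05, and DESeq2 and limma also called 0. Relative to mitochondrial mRNA 6 members had a higher and 2 a lower response in PELO than in NTC at 48 h (47.9%), the largest being MT-TR (1.17), and MT-ATP6 (-0.14) and MT-ATP8 (-0.22) the lower ones. None differed between HBS1L and NTC by edgeR on that scale, with 2 at an unadjusted p under 0.05.

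At 96 h 12 members differed between PELO and NTC, MT-TI with a higher response (1.01 ± 0.25, adjusted p = 0.00111) and 11 with a lower one, beside 28.7% and 26% of all genes (54.8% called). The 2 rRNAs led the lower ones, MT-RNR1 at -1.09 ± 0.23 (adjusted p = 0.000198) and MT-RNR2 at -0.96 ± 0.25 (adjusted p = 0.00173). The other 9 were protein genes, from -0.87 for MT-CO3 to -0.65 for MT-ND3. MT-TI, both rRNAs, MT-CO3, MT-ND3 and MT-ND4 held without any 1 of the 12 libraries. The untreated PELO and NTC groups that enter this difference themselves differed in 17 members at 96 h. In a fit of the 18 libraries of 96 h alone 5 members differed, 1 higher and 4 lower. Without NTC no dox replicate 3, 20 members differed, 1 higher and 19 lower, and without NTC no dox replicate 2, 7 did, 2 higher and 5 lower. Against mitochondrial mRNA 15 had a higher and 2 a lower response (54.8% of all genes called), among them MT-TI (1.72 ± 0.13), MT-TM (1.28 ± 0.13), MT-TL1 (1.07 ± 0.07) and MT-TR (1.03 ± 0.23). These 4 held without any 1 library.

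HBS1L and NTC differed at 96 h in MT-TT alone (-1.25 ± 0.25, adjusted p = 0.00128), where 5.41% of all genes were higher and 5.32% lower (10.7% called), and that difference held without any 1 of the 12 libraries. The number of members was 11, all lower, without NTC no dox replicate 3, and 2, both lower, without HBS1L no dox replicate 2. Relative to mitochondrial mRNA the response of 5 was higher, MT-TF (0.68), MT-ATP8 (0.42), MT-ATP6 (0.34), MT-CYB (0.26) and MT-ND2 (0.20), and that of 3 was lower, MT-TT (-0.90), MT-ND5 (-0.58) and MT-TD (-0.52), beside 10.8% of all genes called. The MT-TD difference was lost without 6 of the 12 libraries.

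PELO and HBS1L, set against each other, differed in 5 members at 48 h, all higher in PELO, where 21.9% of all genes were higher and 21.3% lower (43.2% called). At 96 h they differed in 11, 4 higher and 7 lower, where 29.1% and 26.4% of all genes were (55.5% called). The 5 at 48 h were MT-TR (0.94 ± 0.20, adjusted p = 0.000242), MT-TM (0.81 ± 0.23, adjusted p = 0.00422), MT-TI (0.76), MT-TL1 (0.71) and MT-TD (0.65). The first 3 held without any 1 of the 12 libraries, and 3 members were called without PELO no dox replicate 1 or 2 or PELO dox replicate 2. Fits of 1 time alone gave 8, all higher, at 48 h and 7, 3 higher and 4 lower, at 96 h. At 96 h MT-TI (1.42 ± 0.25, adjusted p = 1.95e-05), MT-TT (1.13 ± 0.27, adjusted p = 0.000639), MT-TR and MT-TM were higher, and MT-RNR1 (-0.96 ± 0.23, adjusted p = 0.000756) and MT-RNR2 (-0.77 ± 0.25, adjusted p = 0.00947) led the lower ones.

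In cultures without dox the lines also differed, though not alike at 48 h and 96 h. In HBS1L no dox against NTC no dox at 48 h 24 members were higher and none lower, where 18.7% of all genes were higher and 19.2% lower (37.9% called), and all 37 had a log2 value above 0, with a median of 0.54 beside 0.01 over all genes. MT-TI had 11, 9.72 and 10.5 CPM in HBS1L no dox against 6.99, 5.88 and 6.51 CPM in NTC no dox (log2 0.69 ± 0.16, adjusted p = 0.00118), and MT-ND2 1917, 1956 and 1939.5 against 1243, 1125 and 1130.0 CPM (log2 0.73 ± 0.18, adjusted p = 0.00198), neither with overlap. The count was 13 without NTC no dox replicate 2, NTC no dox replicate 3 or HBS1L no dox replicate 3, and 12 calls held without any 1 of the 6 libraries. PELO no dox against NTC no dox gave 0 called members at 48 h by edgeR, where 6.37% of all genes were higher and 4.72% lower (11.1% called), none at an unadjusted p under 0.05, 0 by DESeq2 and by limma, and 2 when the 18 libraries of 48 h were fitted alone.

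At 96 h PELO no dox had 16 members higher and 1 lower than NTC no dox, where 10.3% of all genes were higher and 11.5% lower (21.8% called). MT-TF had 7.70, 8.27 and 11.5 CPM in PELO no dox against 3.62, 4.46 and 6.34 CPM in NTC no dox (log2 0.93 ± 0.15, adjusted p = 4.78e-05), and MT-ATP6 1684, 1757 and 1855 against 664, 608 and 1334 CPM (log2 1.02 ± 0.20, adjusted p = 0.000434), both without overlap. MT-TT was the lower one, with 2.07, 2.42 and 2.35 CPM in PELO no dox against 2.67, 2.61 and 4.91 CPM in NTC no dox (log2 -0.58 ± 0.19), lost without NTC no dox replicate 3 or PELO no dox replicate 1 or 3. The count was 9, all higher, in a fit of the libraries of 96 h alone, 8 without NTC no dox replicate 1 or 2, 10 without PELO no dox replicate 3, and 25 without NTC no dox replicate 3. HBS1L no dox against NTC no dox gave 1 call at 96 h, MT-TP, the proline tRNA, where 0.0867% of all genes were higher and 0.0482% lower (0.135% called), at 1.38, 0.933 and 1.16 CPM in HBS1L no dox against 0.556, 0.614 and 0.684 CPM in NTC no dox (log2 0.91 ± 0.19, adjusted p = 0.0375). That count was 15 without NTC no dox replicate 3, 2 without HBS1L no dox replicate 2, and 0 without any one of the other 4 libraries. These untreated groups are the baselines of the responses above, so a difference between responses and one between baselines share libraries.

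The response at 96 h minus that at 48 h, a difference of responses within each line, was tested last. In PELO 4 members had a higher and 8 a lower response at 96 h, where 22.1% and 19.9% of all genes did (42.1% called). In HBS1L it was 3 and 2, where it was 12.2% and 10.2% of all genes (22.4% called), and in NTC 6 and 3, where it was 12.3% and 14.1% (26.5% called). MT-TR and MT-TM were higher in all 3 lines, at 0.89 and 0.77 in PELO, 0.96 and 0.86 in HBS1L, and 1.78 and 1.07 in NTC. MT-TQ was lower in all 3, at -2.26, -1.06 and -1.47. MT-TT differed in PELO (0.85) and NTC (1.21), and in HBS1L it had 0.12 (adjusted p = 0.785). All of these that passed held without any 1 of the 12 libraries, except MT-TQ in HBS1L, lost without 6 of them. The count in NTC was 24, with 23 higher and 1 lower, without NTC no dox replicate 3. It was 7 in PELO without dox replicate 2 at 48 h or dox replicate 3 at 96 h, and 3 in HBS1L without no dox replicate 1 at 96 h.

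The nuclear genes that transcribe, cut and modify mitochondrial RNA were counted as a list of 59. In PELO 20 rose and 15 fell at 48 h (59.3% of the list called, 48% of all genes), and 28 rose and 19 fell at 96 h (79.7% and 66.8%). In HBS1L 2 rose and 12 fell at 48 h (23.7% and 21.5%), and 4 rose and 14 fell at 96 h (30.5% and 19.9%). In NTC 16 rose and 6 fell at 48 h (37.3% and 35%), and 2 rose and 1 fell at 96 h (5.08% and 7.52%). The median log2 fold changes of the list at 48 and 96 h were 0.05 and 0.10 in PELO, beside -0.02 and 0.00 over all genes, -0.03 and -0.03 in HBS1L, beside 0.01 and -0.01, and 0.06 and 0.03 in NTC, beside 0.02 and 0.00. In PELO the genes named by their small adjusted p included YRDC (0.75 at 48 h, 1.30 at 96 h) and OSGEPL1 (-0.90 and -1.22), which both act in making threonylcarbamoyl-adenosine on tRNAs, OSGEPL1 in mitochondria. ALKBH1, a dioxygenase that also modifies mitochondrial tRNA, rose at 48 h (0.62), PUS1, a pseudouridine synthase, at 96 h (0.69), and TRUB2, a pseudouridine synthase of mitochondrial RNA, fell at both times (-0.35 and -0.68). In HBS1L and NTC at 48 h SUPV3L1, the helicase of the mitochondrial RNA degradation complex, fell (-0.40 and -0.49), as did MTO1, which modifies the wobble base of mitochondrial tRNAs (-0.22 and -0.21), while PRORP, the nuclease of mitochondrial RNase P, rose (0.18 and 0.44). The SUPV3L1 and PRORP responses differed between PELO and NTC at 48 h, by 0.78 and -0.75. In HBS1L at 96 h FASTKD5 and PTCD3, mitochondrial RNA-binding proteins, fell (-0.30 and -0.20), and POLRMT, the mitochondrial RNA polymerase, rose by 0.16.

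Of 25 factors of mitochondrial translation, 10 rose and 12 fell in PELO at 48 h (88% of the list called, 48% of all genes), and 12 rose and 9 fell at 96 h (84% and 66.8%). In HBS1L 0 rose and 6 fell at 48 h (24% and 21.5%) and 4 rose and 3 fell at 96 h (28% and 19.9%), and in NTC 4 rose and 4 fell at 48 h (32% and 35%) and 0 were called at 96 h, where 7.52% of all genes were. The list's medians at 48 and 96 h were -0.04 and 0.04 in PELO, -0.06 and 0.01 in HBS1L, and 0.01 and 0.02 in NTC. MTRF1L, a release factor, rose in PELO (0.58 at 48 h and 1.04 at 96 h) and fell at 48 h in HBS1L (-0.21) and NTC (-0.30). GATB, a subunit of the enzyme that completes glutaminyl-tRNA on MT-TQ, fell in PELO at both times (-0.56 and -0.58), as did OXA1L, the inner membrane insertase (-0.26 and -0.49). Of 30 genes of mitochondrial DNA maintenance, 9 rose and 10 fell in PELO at 48 h (63.3% of the list called, 48% of all genes), and 12 rose and 13 fell at 96 h (83.3% and 66.8%). In HBS1L 6 rose and 1 fell at 48 h (23.3% and 21.5%) and 1 rose and 9 fell at 96 h (33.3% and 19.9%), and in NTC 10 rose and 2 fell at 48 h (40% and 35%) and 0 rose and 1 fell at 96 h (3.33% and 7.52%). Its medians at 48 and 96 h were -0.04 and 0.03 in PELO, 0.00 and -0.10 in HBS1L, and 0.09 and 0.04 in NTC. ATAD3B, a nucleoid-associated membrane protein, and TOP3A, a topoisomerase, rose in PELO at 96 h (1.25 and 0.73), where TK2, the mitochondrial thymidine kinase, and SAMHD1, which degrades deoxynucleotides, fell (-1.01 and -0.91). FEN1, a flap nuclease shared with the nucleus, rose in HBS1L (0.33) and NTC (0.97) at 48 h and fell in HBS1L at 96 h (-0.29). Whether any of these genes bears on the members' values was not tested.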

How the data were processed

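Polyadenylated RNA of 36 libraries was analysed from a table of expected counts per gene that the authors deposited; values were not all whole numbers and were rounded here. Per the submitters' processing notes DRAGEN, featureCounts of Subread, edgeR and limma were used with GRCh38.p13; neither versions nor strand settings are given there. A second deposited table, log2 CPM made by the authors, was used only for an alternative test. Symbols and positions came from GENCODE 29 (GRCh38).

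Counts were filtered (edgeR filterByExpr, minimum count 10, minimum total 15), leaving 20767 genes, scaled by TMM, and fitted with edgeR 4.0.16 (R 4.3.3; robust quasi-likelihood F test, 1 mean for each of 12 groups). Tests were two-sided with Benjamini-Hochberg adjustment over all genes tested and a threshold of 0.05. CPM are per 1000000 TMM-scaled counts, except those of marker lists, which are per 1000000 counts without scaling, errors of group values are SDs of 3 libraries and errors of log2 values are SEs. A second fit, added after the data were seen, used the summed count of the 13 mitochondrial protein genes as library size for the members. It kept the TMM scaling for all other genes. Alternatives used DESeq2 1.42.0, limma 3.58.1, other scalings, no filter, 1 time alone, the replicate block, and each library left out. The fits were tested on simulated data. Totals of 45.4 to 107.4 (units of 1000000 counts) set the counting precision.

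All protein and rRNA genes were named, values per library are given for MT-CO3, MT-ND3, MT-ND4, MT-ND6, MT-RNR2 and, in each direction of a comparison, the 2 members of smallest adjusted p, and tRNA genes were named where called or among the 3 highest. For gene lists the 2 genes with the smallest adjusted p in each direction could be named, and of nuclear copies the 5 most abundant. Per-library values of other members were added after their values were seen. Members and lists were chosen with earlier results of these data known.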

Additional observations from a re-analysis of the deposited data

Results flagged for a closer look

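All values here were singled out because 2 dox responses differed by a test of the difference itself (edgeR, adjusted p below 0.05). Each is a log2 difference, the first response minus the second, and a negative value means a lower first response. With CPM of the whole library, PELO minus NTC at 48 h gave MT-TR (1.21), MT-TM (0.88), MT-TL1 (0.69) and MT-TI (0.64). At 96 h PELO minus NTC gave MT-TI (1.01), MT-RNR1 (-1.09), MT-RNR2 (-0.96), MT-CO3 (-0.87), MT-ND3 (-0.65), MT-ND4 (-0.84), MT-ND4L (-0.83), MT-CO2 (-0.76), MT-ATP6 (-0.77), MT-ATP8 (-0.77), MT-ND5 (-0.81) and MT-CO1 (-0.70). HBS1L minus NTC at 96 h gave MT-TT (-1.25). PELO minus HBS1L gave MT-TR (0.94), MT-TM (0.81), MT-TI (0.76), MT-TL1 (0.71) and MT-TD (0.65) at 48 h, and MT-TI (1.42), MT-TT (1.13), MT-TR (0.87), MT-TM (0.72), MT-RNR1 (-0.96), MT-RNR2 (-0.77), MT-ATP8 (-0.86), MT-ATP6 (-0.78), MT-ND3 (-0.56), MT-TA (-1.13) and MT-TF (-0.49) at 96 h.

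Between the times, the response at 96 h minus that at 48 h gave in PELO MT-TR (0.89), MT-TI (0.93), MT-TT (0.85), MT-TM (0.77), MT-TQ (-2.26), MT-TA (-1.94), MT-TC (-1.35), MT-TN (-1.57), MT-ND6 (-0.88), MT-ATP8 (-0.75), MT-ATP6 (-0.73) and MT-RNR1 (-0.59). In HBS1L it gave MT-TR (0.96), MT-TF (0.70), MT-TM (0.86), MT-ND6 (-1.12) and MT-TQ (-1.06), and in NTC MT-TR (1.78), MT-TT (1.21), MT-TM (1.07), MT-TD (1.15), MT-TL1 (0.74), MT-ND5 (0.81), MT-TQ (-1.47), MT-TY (-1.38) and MT-TC (-1.29).

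Relative to mitochondrial mRNA, for up to 2 members in each direction, those of smallest adjusted p, PELO minus NTC gave MT-TL1 (0.65), MT-TM (0.84), MT-ATP8 (-0.22) and MT-ATP6 (-0.14) at 48 h and MT-TL1 (1.07), MT-TI (1.72), MT-RNR1 (-0.32) and MT-ND4 (-0.14) at 96 h, and HBS1L minus NTC gave MT-ATP6 (0.34), MT-ATP8 (0.42), MT-TT (-0.90) and MT-ND5 (-0.58) at 96 h. Only for some of these values are the libraries on which they rest named with the comparisons above. Of the 11 whole-library calls for PELO minus HBS1L at 96 h, 6 held without any 1 of the 12 libraries. Of the calls between the times, 7 of 12 held so in PELO, 3 of 5 in HBS1L and 5 of 9 in NTC.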

How the results depend on the processing

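Counts of called members are given here by setting, for the whole-library scale unless said otherwise. In a fit of the libraries of 1 time alone the dox comparisons gave 10 in PELO, 15 in HBS1L and 15 in NTC at 48 h and 10 in PELO at 96 h, PELO minus NTC gave 5 at 96 h, PELO minus HBS1L gave 8 at 48 h and 7 at 96 h, and, without dox, PELO against NTC gave 2 at 48 h and 9 at 96 h and HBS1L against NTC 0 at 96 h. With no filter on low counts PELO at 96 h gave 8, PELO minus NTC 2 and PELO minus HBS1L 3 at 48 h, untreated PELO against NTC 11 and HBS1L against NTC 2 at 96 h, and 96 h minus 48 h in PELO 7. DESeq2 gave 1 in NTC, 3 for HBS1L minus NTC and 2 for untreated HBS1L against NTC at 96 h, and limma on the deposited log2 CPM gave 1 in NTC and 3 for HBS1L minus NTC at 96 h. The cause of these shifts was not tested.

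Leaving out 1 library at a time gave 4 to 7 called members in HBS1L at 48 h, and at 96 h 9 to 18 in PELO, 2 to 6 in HBS1L and 0 to 23 in NTC. PELO minus NTC ranged over 2 to 5 at 48 h and 7 to 20 at 96 h, HBS1L minus NTC over 1 to 11 at 96 h, and PELO minus HBS1L over 3 to 7 at 48 h. Without dox, HBS1L against NTC ranged over 13 to 23 at 48 h and 0 to 15 at 96 h, and PELO against NTC over 8 to 25 at 96 h. The differences between times ranged over 7 to 13 in PELO, 3 to 7 in HBS1L and 6 to 24 in NTC. Relative to mitochondrial mRNA the ranges at 96 h were 8 to 14 in HBS1L and 0 to 3 in NTC.

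No count moved by over 1.5 times with the size factors of relative log expression, with no scaling, with nuclear counts as library size or with all 37 members as the denominator, and no result changed sign in any alternative run. Replicate numbers showed no clear pairing: same-numbered libraries of 2 groups correlated at -0.208 to 0.199 in their deviations from the group means. At each time 0 of 15 group pairs were above 0.1 throughout. With 3 libraries per group this cannot show whether same-numbered libraries shared a culture or a day. With the replicate number as a block the dox comparisons gave 5, 7 and 9 called members in PELO, HBS1L and NTC at 48 h and 18, 2 and 0 at 96 h, and PELO minus NTC gave 4 and 12, HBS1L minus NTC 0 and 1, and PELO minus HBS1L 6 and 11 at the 2 times. Untreated PELO gave 0 and 17, untreated HBS1L 21 and 1, and the differences between times 12, 5 and 8 in PELO, HBS1L and NTC. On the scale of mitochondrial mRNA the block gave 19, 18 and 21 at 48 h and 22, 15 and 2 at 96 h in PELO, HBS1L and NTC, 8 and 16 for PELO minus NTC, and 0 and 8 for HBS1L minus NTC.

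The 3 libraries per group and the few counts of the scarcest tRNA rows limit what can be called: MT-TN had as few as 2.25 counts.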
